A study of Mus musculus with 2 samples.

Results

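The metalloproteinase genes described here are the matrix metalloproteinases (Mmp), the membrane proteases of the ADAM family, the secreted ADAMTS proteases with their non-catalytic ADAMTS-like relatives (Adamtsl), and the tissue inhibitors of metalloproteinases (Timp). They were chosen by symbol alone, from the names listed in either library, which gave 67 of 17333 genes: 19 Mmp, 20 Adam, 19 Adamts, 5 Adamtsl and 4 Timp genes. Another 18 RefSeq genes with matching symbols were not analysed here. RNA of endothelial-gated mammary cells from virgin adult mice aged 8 weeks was sequenced. The libraries were 1 Procr-positive, which expressed the protein C receptor at the surface, and 1 Procr-negative. Both gates took cells without lineage markers that carried CD31, CD105 and Sca1 at the surface, and both libraries were sequenced as single reads. The sources used here do not give strain, genotype, the number of animals or any pooling. Each group is a single library, so differences lack a check by replicates and p-values are left out.

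The enzymes of these families hold a zinc ion in the active site and are made as inactive precursors. Most MMPs cleave collagens and other matrix proteins, ADAMs release the outer parts of membrane proteins such as Notch receptors, growth factors and cytokines, and ADAMTS proteases cleave matrix proteoglycans, procollagens and von Willebrand factor. TIMPs block MMPs, and Timp3, which is held in the matrix, also blocks several ADAMs and ADAMTS enzymes. In vessels the balance of these proteins is known to bear on basement membrane turnover, sprouting and permeability, and in the mammary gland on the branching of ducts.

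The deposited values are unique reads per gene and RPKM, which are reads per kb of gene length and per M reads. The Procr-positive library held 9.22 M reads and the Procr-negative library 9.565 M reads. The sorted cell type was checked with marker genes. All 17 endothelial markers passed 2-fold toward the Procr-positive library (median log2 ratio of RPKM + 1, 3.33), with sums of 3521 RPKM there and 350 RPKM in the Procr-negative library. All 16 luminal epithelial markers were at least 2-fold lower (median −4.32), with sums of 855 RPKM in Procr-positive cells, against 18836 RPKM in Procr-negative cells, so the library labelled Procr-negative held far more luminal epithelial than endothelial marker transcript. Mural cell markers were higher in 12 of 13 cases and summed to 1658 RPKM in the Procr-positive library, against 206 RPKM in the Procr-negative one. Fibroblast markers were lower in 9 of 11 cases, with sums of 180 RPKM in Procr-positive cells, against 751 RPKM in Procr-negative cells, basal epithelial markers were lower in 1 of 4 tested cases, with sums of 91.3 RPKM in Procr-positive cells, against 166 RPKM in Procr-negative cells, and immune markers were higher in 6 of 9 tested cases, with sums of 73.6 RPKM in Procr-positive cells, against 30.2 RPKM in Procr-negative cells. Of the genes behind the gate, Procr had 1321 RPKM in the Procr-positive library, against 147 RPKM from 2120 reads in the Procr-negative library. Pecam1, which encodes CD31, and Eng, which encodes CD105, were 13.5-fold and 10.3-fold higher in the Procr-positive library, although both gates required these proteins. Ly6a, which encodes Sca1, was 2.40-fold lower. No marker of any list was at 0 reads in either library. Several of these lists thus differed strongly between the libraries, and their part in the results below was not tested. In bulk RNA, fewer cells of a type and less RNA per cell cannot be told apart.

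The 67 genes together took 1.29% of all reads in the Procr-positive library, against 0.279% in the Procr-negative library. Their summed level was 3057 RPKM in the Procr-positive library, against 735 RPKM in the Procr-negative library. Adamts4, Adamts1, Timp3 and Adamts9 held 85.7% of the members' reads in the Procr-positive library, against 41.8% in the Procr-negative library. Without these 4 genes the sums were 559 RPKM in Procr-positive cells, against 476 RPKM in Procr-negative cells. The difference in the summed level thus lay mostly in 4 genes, of which 3 encode ADAMTS proteases and the other an inhibitor.

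Calls of higher or lower were made from 2-fold upward on the scale of RPKM + 1, among genes that reached 1 RPKM in at least 1 library. Of the 67 genes 40 passed this filter, and the 27 others had at most 82 reads in a library. These 40 are called tested, although no test between groups was possible. Of them 15 were higher (37.5%; 13.1% of all 12509 genes tested), 9 were lower (22.5%; 23.7% of all genes tested) and 16 lay within 2-fold. Their median log2 ratio was 0.52, against −0.38 for all genes tested, and with no filter it was 0.14 over the 67 members and −0.16 over all 17333 genes. The share of members called lower was close to that of all genes. The split between higher and lower depended on scaling: it was 19 higher and 5 lower with log ratios centred on the median of all genes, and 19 higher and 7 lower with upper-quartile scaling. For all genes the split was 1643 higher and 2964 lower, 2426 higher and 1644 lower when centred on their median, and 2139 higher and 2014 lower with upper-quartile scaling.

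**Figure D1:**
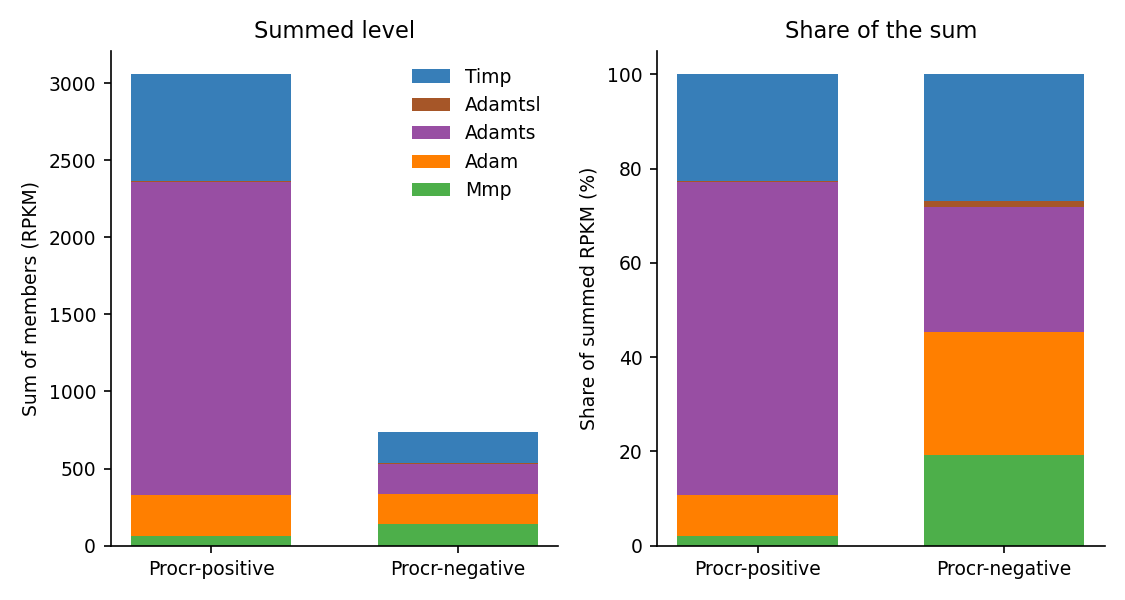
Summed RPKM of the members by family (left) and each family's share of that sum in percent (right), 1 library per group with no error bars. In the Procr-positive library Adamts genes make up 66.4% of a sum of 3057 RPKM, and in the Procr-negative library 4 families hold most of 735 RPKM, with Adamts at 26.6%.

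The families had different weights in the 2 libraries. Adamts genes summed to 2031 RPKM in the Procr-positive library, against 196 RPKM in the Procr-negative library, a ratio of 10.4. For Timp genes the sums were 689 RPKM in Procr-positive cells, against 197 RPKM in Procr-negative cells, a ratio of 3.50. Adam genes summed to 263 RPKM in Procr-positive cells, against 191 RPKM in Procr-negative cells, and Adamtsl genes to 8.37 RPKM in Procr-positive cells, against 9.69 RPKM in Procr-negative cells. The Mmp genes went the other way, with 65.4 RPKM in the Procr-positive library, against 141 RPKM in the Procr-negative library. They made up 2.14% of the summed level in the Procr-positive library, against 19.2% in the Procr-negative library. The summed Timp level was 10.5 times the summed Mmp level in the Procr-positive library, against 1.40 times in the Procr-negative library.

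Promoter sequences are shown for 3 of the 4 leading genes and for Mmp3, the member with the lowest log2 ratio, because those 3 were higher and Mmp3 was lower in the Procr-positive library. Each holds 300 bases at a start site in the RefSeq promoter table for GRCm38.p6, 5′ to 3′ on the gene's strand. The windows of Adamts1, Timp3 and Mmp3 span the outer start of the annotated gene, while that of Adamts9 lies inside its gene, downstream of the outer start. Capitals mark matches on either strand to TGANTCA (bound by AP-1, the FOS and JUN dimers), GGAAGT (an ETS factor core) or GGGCGG (the GC box of SP and KLF factors), and adjoining capitals may belong to more than 1 match. The windows are chr16:85803064-85803363 (minus strand) for Adamts1, chr6:92943485-92943784 (minus strand) for Adamts9, chr10:86300162-86300461 (plus strand) for Timp3 and chr9:7445572-7445871 (plus strand) for Mmp3.
Adamts1: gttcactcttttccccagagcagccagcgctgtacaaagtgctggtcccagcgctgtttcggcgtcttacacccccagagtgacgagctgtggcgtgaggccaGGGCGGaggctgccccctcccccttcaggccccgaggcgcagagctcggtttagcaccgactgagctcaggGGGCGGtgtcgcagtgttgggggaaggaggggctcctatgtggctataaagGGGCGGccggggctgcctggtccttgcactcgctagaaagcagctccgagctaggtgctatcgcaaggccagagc
Adamts9: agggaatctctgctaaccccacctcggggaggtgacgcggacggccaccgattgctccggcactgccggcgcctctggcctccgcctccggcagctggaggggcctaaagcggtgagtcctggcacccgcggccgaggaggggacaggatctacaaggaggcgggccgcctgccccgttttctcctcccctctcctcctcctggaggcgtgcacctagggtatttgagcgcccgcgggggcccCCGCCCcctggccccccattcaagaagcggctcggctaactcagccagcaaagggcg
Timp3: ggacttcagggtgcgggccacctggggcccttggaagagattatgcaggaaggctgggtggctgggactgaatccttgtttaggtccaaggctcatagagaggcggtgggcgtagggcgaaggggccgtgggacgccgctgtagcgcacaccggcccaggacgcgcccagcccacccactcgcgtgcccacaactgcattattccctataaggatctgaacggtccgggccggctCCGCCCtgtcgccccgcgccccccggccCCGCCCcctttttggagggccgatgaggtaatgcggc
Mmp3: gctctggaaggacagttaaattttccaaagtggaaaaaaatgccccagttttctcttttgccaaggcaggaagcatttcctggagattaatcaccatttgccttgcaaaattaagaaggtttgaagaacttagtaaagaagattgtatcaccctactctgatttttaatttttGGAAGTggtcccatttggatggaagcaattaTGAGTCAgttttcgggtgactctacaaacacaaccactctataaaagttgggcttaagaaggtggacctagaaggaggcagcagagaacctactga
The first 3 windows hold 3, 1 and 2 GC boxes with 64.7%, 70.0% and 67.0% G and C, and no AP-1 or ETS match. The Mmp3 window has 40.0% G and C, with 1 AP-1 match, 1 ETS match and no GC box. This contrast did not hold for other members. Windows of the lower genes Adam10, Mmp14, Mmp15, Adam8 and Adamtsl4 held 3, 2, 1, 1 and 4 GC boxes. None of these had an AP-1 or ETS match. Of the higher genes, Adamts12 and Timp4 had no GC box in their windows, and Adam15 had 5.

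Promoters were found for 43 of the 67 genes, in 47 windows. AP-1 matches lay in 7 of these windows (14.9%), against 7.81% of 32851 promoters in the table. They belong to Adam19, Adam1b, Adam25, Mmp3, Mmp10, Mmp12 and Mmp13. Of these 7 genes, Adam19 was called higher, Mmp3 lower and Mmp13 neither, and the others did not reach 1 RPKM. GC boxes lay in 57.4% of the members' windows and 35.7% of all, and ETS matches in 25.5% of the members' windows and 23.8% of all. A match describes the letters in the window and is not a measured binding site.

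**Figure D2:**
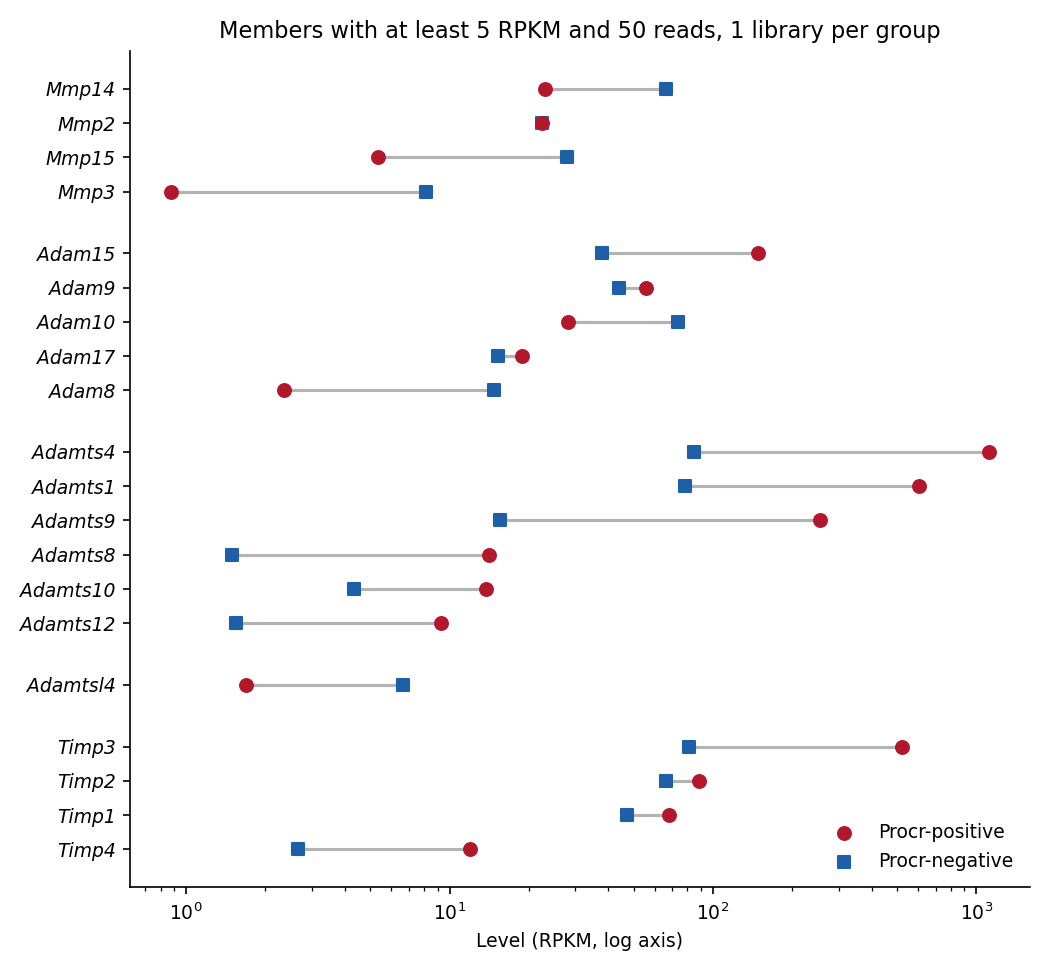
Levels in RPKM, on a log axis, of the 20 members with at least 5 RPKM and 50 reads in a library, grouped by family, with circles for the Procr-positive and squares for the Procr-negative library. All 6 Adamts and 4 Timp genes shown have the circle on the right, while Mmp14, Mmp15 and Mmp3 have it on the left and the Mmp2 symbols coincide.

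Among the ADAMTS proteases, those known to cleave large proteoglycans such as versican and aggrecan held most of the difference. Of 7 such genes 6 were tested, of which 5 were higher and none lower, while 13.1% of all genes tested were higher and 23.7% lower. The 7 genes summed to 1999 RPKM in the Procr-positive library, against 182 RPKM in the Procr-negative library. Adamts4, first described as an aggrecanase (NCBI gene 240913; chromosome 1, 171250129 to 171262267 in GRCm38), had 1115 RPKM from 37750 reads in the Procr-positive library, against 84.5 RPKM from 2968 reads in the Procr-negative library. By read number it was in place 10 of all 16247 genes listed in the Procr-positive library, against in place 558 of 16582 in the Procr-negative library. The ratio of reads per M was 13.2 (95% counting interval 12.7 to 13.7). Such intervals are exact conditional binomial ones, cover counting error only and say nothing of variation between animals or sorts.

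Adamts1, a versican-cleaving protease (chromosome 16, 85793827 to 85803113), had 608 RPKM from 27481 reads in the Procr-positive library, against 78.3 RPKM from 3675 reads in the Procr-negative library. Adamts9, a close vertebrate relative of the worm migration protease GON-1 (chromosome 6, 92772699 to 92944450), had 255 RPKM from 14242 reads in Procr-positive cells, against 15.5 RPKM from 897 reads in Procr-negative cells. Its read ratio of 16.5 (15.4 to 17.6) was the highest of the 20 members with 5 RPKM and 50 reads in a library, and its log2 ratio of 3.96 was in place 23 of the 12509 genes tested. Adamts8, another member of this clade with reported anti-angiogenic activity, was lower in abundance, at 14.2 RPKM from 474 reads in the Procr-positive library, against 1.497 RPKM from 52 reads in the Procr-negative library. The ratio was 9.46 (7.09 to 12.8). These 4 genes of 1 clade were thus all higher in the Procr-positive library, over a range of levels from 14.2 to 1115 RPKM.

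The remaining proteoglycan-cleaving genes were scarce. Adamts5, known as aggrecanase-2, had 2.78 RPKM from 208 reads in the Procr-positive library, against 0.710 RPKM from 55 reads in the Procr-negative library. Adamts15 had 3.98 RPKM in Procr-positive cells, against 1.85 RPKM in Procr-negative cells. It stayed within 2-fold on the scale of RPKM + 1, with a log2 ratio of 0.81, while its read ratio was 2.15 (1.70 to 2.75). Adamts20 had 3 reads in Procr-positive cells, against 1 read in Procr-negative cells. Some of these genes are chromosomal neighbours: Adamts1 and Adamts5 lie 55.0 kb apart on chromosome 16, and Adamts15 and Adamts8 20.1 kb apart on chromosome 9, with no protein-coding gene between them in either pair. Within each pair the more abundant gene of the Procr-positive library also had the higher log2 ratio, 2.94 for Adamts1 and 1.15 for Adamts5, and 2.60 for Adamts8 and 0.81 for Adamts15.

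The 3 procollagen-processing genes, which encode enzymes that trim the amino end of procollagens, split 3 ways. Adamts14 was higher, with 90 reads (1.88 RPKM) in the Procr-positive library, against 11 reads (0.222 RPKM) in the Procr-negative library. Adamts3, which also processes the lymphatic growth factor VEGF-C, was lower, with 20 reads (0.286 RPKM) in Procr-positive cells, against 163 reads (2.25 RPKM) in Procr-negative cells. Adamts2 lay within 2-fold, at 2.64 RPKM in Procr-positive cells, against 3.19 RPKM in Procr-negative cells. Their summed level, 4.81 RPKM in the Procr-positive library, against 5.66 RPKM in the Procr-negative library, was small beside that of the proteoglycan-cleaving genes.

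Of the 9 other Adamts genes 3 were tested and all 3 were higher. Adamts10, linked to fibrillin microfibrils, had 13.8 RPKM from 516 reads in the Procr-positive library, against 4.34 RPKM from 169 reads in the Procr-negative library, a ratio of 3.17 (2.66 to 3.79). Adamts12, which cleaves the cartilage matrix protein COMP, had 9.31 RPKM from 535 reads in Procr-positive cells, against 1.54 RPKM from 92 reads in Procr-negative cells, a ratio of 6.03 (4.83 to 7.61). Adamts18 had 78 reads in the Procr-positive library, against 11 in the Procr-negative library. The protease of von Willebrand factor, Adamts13, had 6 reads in Procr-positive cells, against 5 reads in Procr-negative cells, which is too few to compare. Its substrate gene Vwf, an endothelial marker, was at 170 RPKM in the Procr-positive library, against 6.86 RPKM in the Procr-negative library.

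The Adamtsl genes encode secreted proteins that carry ADAMTS-type accessory domains without a protease domain. Adamtsl4, which is known to bind fibrillin microfibrils, was the 1 gene of the 5 past 2-fold. It had 1.69 RPKM from 60 reads in the Procr-positive library, against 6.67 RPKM from 246 reads in the Procr-negative library, and was 3.95-fold lower (2.97 to 5.33). Adamtsl1, Adamtsl3 and Adamtsl5 lay just inside 2-fold on the other side, with log2 ratios of 0.95, 0.98 and 0.87. These are low genes, for which the added 1 RPKM shrinks the ratio. With a pseudocount of 0.1 or 0.5 RPKM, and under upper-quartile scaling or centring on the median of all genes, all 3 passed 2-fold. The fifth, Adamtsl2, had 11 reads in the Procr-positive library, against 35 reads in the Procr-negative one. By reads it was 3.07-fold lower (1.52 to 6.69), and its log2 ratio of RPKM + 1 was −0.64.

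The Timp genes were at high levels in both libraries apart from Timp4. Timp3 (chromosome 10, 86300412 to 86349505) had 520 RPKM from 22453 reads in the Procr-positive library, against 81.1 RPKM from 3633 reads in the Procr-negative library. It held 75.5% of the summed Timp level in the Procr-positive library, against 41.2% in the Procr-negative library. Timp4 was the other gene past 2-fold, with 11.9 RPKM from 156 reads in Procr-positive cells, against 2.66 RPKM from 36 reads in Procr-negative cells, a ratio of 4.50 (3.11 to 6.65). Timp1, a soluble inhibitor, had 68.3 RPKM from 570 reads in the Procr-positive library, against 47.0 RPKM from 407 reads in the Procr-negative library. Timp2, which also takes part in the activation of Mmp2, had 88.7 RPKM from 2972 reads in Procr-positive cells, against 66.3 RPKM from 2305 reads in Procr-negative cells. The read ratios of Timp1 and Timp2, 1.45 and 1.34, stayed within 2-fold.

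Timp1, Timp3 and Timp4 each lie inside a synapsin gene, Syn1, Syn3 and Syn2, and the sources used here do not say whether counting used strand. The host genes Syn3 and Syn2 were scarce and went the opposite way: Syn3 had 0.173 RPKM in the Procr-positive library, against 1.21 RPKM in the Procr-negative library, and Syn2 had 0.701 RPKM in Procr-positive cells, against 4.57 RPKM in Procr-negative cells. Syn1 had 0 reads in Procr-positive cells, against 7 reads in Procr-negative cells. Reads in stretches where genes overlap cannot be told apart without strand.

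**Figure D3:**
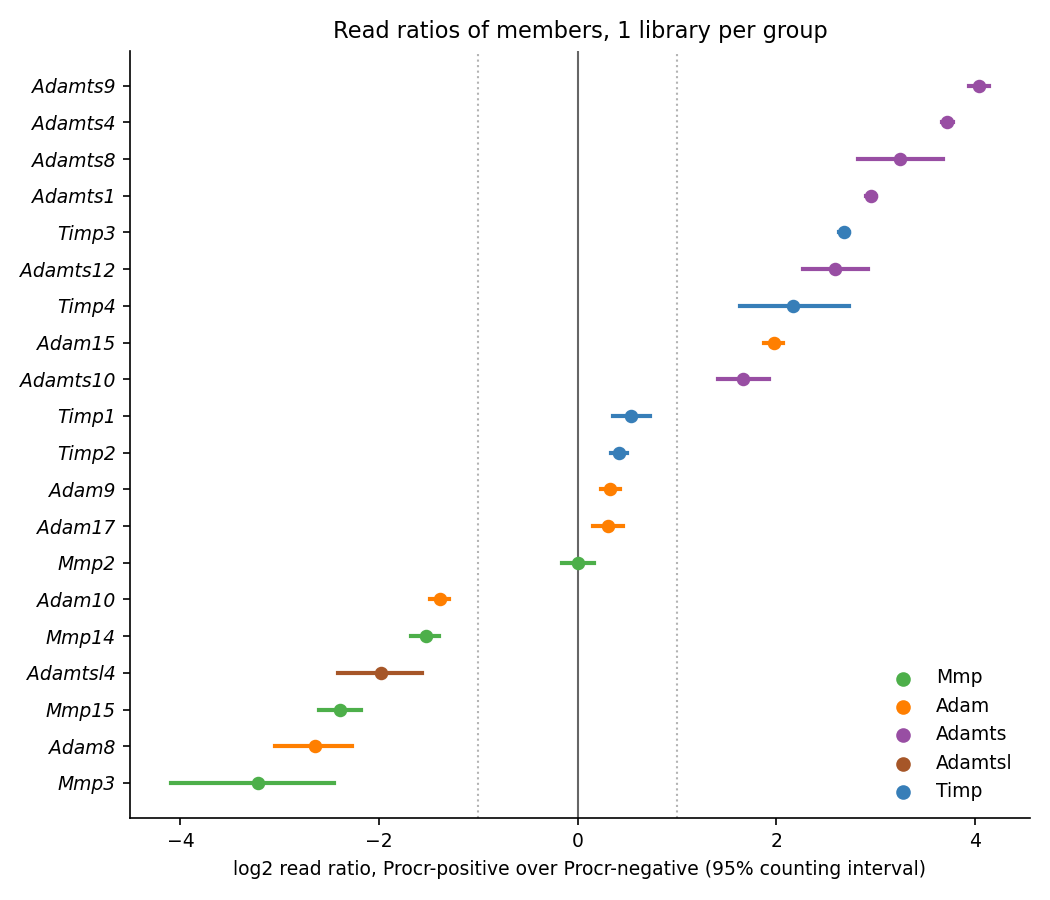
Read ratios of the 20 members with at least 5 RPKM and 50 reads in a library, as log2 of Procr-positive over Procr-negative reads per M, with 95% counting intervals as bars, dotted lines at 2-fold and 1 library per group. Adamts9 at a ratio of 16.5 and Adamts4 at 13.2 lie at the top, and Mmp3 at 0.107 lies at the bottom.

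The Mmp genes were at lower levels than the Adamts and Timp genes. Of 19 members 11 were tested, of which 2 were higher and 5 lower, while 13.1% of all genes tested were higher and 23.7% lower. The median log2 ratio of the 11 was −0.91. It stayed below 0 under median centring (−0.53) and upper-quartile scaling (−0.69), and was −0.24 over all 19 genes with no filter. Mmp14, Mmp15 and Mmp16, which encode MMPs with a transmembrane anchor, were each lower in the Procr-positive library. Mmp23, whose product is also anchored in the membrane, lay within 2-fold. It had 2.95 RPKM in Procr-positive cells, against 2.41 RPKM in Procr-negative cells. Mmp14, which encodes MT1-MMP, a surface collagenase that activates pro-MMP2 (chromosome 14, 54431598 to 54442456), had 23.0 RPKM from 551 reads in the Procr-positive library, against 66.5 RPKM from 1652 reads in the Procr-negative library. It was 2.89-fold lower (2.62 to 3.19) and yet had the highest RPKM of the Mmp genes in both libraries, though its counting interval overlapped that of Mmp2 in the Procr-positive library. Mmp15, which encodes MT2-MMP, had 5.34 RPKM from 214 reads in the Procr-positive library, against 27.98 RPKM from 1163 reads in the Procr-negative one, 5.24-fold lower (4.52 to 6.09). Mmp16 had 3 reads in Procr-positive cells, against 50 reads in Procr-negative cells, 16.1-fold lower by reads (5.19 to 80.5). At such low levels the added 1 RPKM shrinks the ratio, and its log2 ratio lay at the threshold of 2-fold lower.

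The gelatinase gene Mmp2 was level between the libraries. It had 22.43 RPKM from 635 reads in the Procr-positive library, against 22.41 RPKM from 658 reads in the Procr-negative library, a ratio of 1.001 (0.896 to 1.12). In the set of proteins through which MMP2 is activated, Mmp14 was thus lower, Mmp2 level and Timp2 within 2-fold in the Procr-positive library. The other gelatinase gene, Mmp9, had 1.36 RPKM from 40 reads in Procr-positive cells, against 3.45 RPKM from 105 reads in Procr-negative cells. Its log2 ratio of RPKM + 1, −0.91, lay inside the threshold, while by reads it was 2.53-fold lower (1.74 to 3.74).

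Mmp3, the stromelysin-1 gene (chromosome 9, 7445822 to 7455975), had 0.876 RPKM from 15 reads in the Procr-positive library, against 8.16 RPKM from 145 reads in the Procr-negative library. It was 9.32-fold lower (5.47 to 17.1). Mmp3 lies in a cluster of Mmp genes on chromosome 9, from which Mmp8, Mmp10, Mmp12, Mmp13 and Mmp27 also had reads. Of those 5 the filter of 1 RPKM passed Mmp13 alone, which lay within 2-fold. Mmp13 had 25 reads in the Procr-positive library, against 44 in the Procr-negative one, and Mmp12 had 30 reads in Procr-positive cells, against 16 reads in Procr-negative cells. Mmp8 had 3 reads in Procr-positive cells alone, and Mmp10 had 3 reads in Procr-negative cells alone. Mmp27 had 0 reads in the Procr-positive library, which allows up to 0.196 RPKM from 3 reads, and 12 reads in the Procr-negative library, so it was at least 3.86-fold lower against that floor, while the counting interval of the fold began at 2.68.

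The 2 higher Mmp genes were scarce. Mmp17, a GPI-anchored MMP, had 2.86 RPKM from 92 reads in the Procr-positive library, against 0.599 RPKM from 20 reads in the Procr-negative library. Mmp28, which encodes epilysin, had 43 reads in Procr-positive cells, against 2 reads in Procr-negative cells, a ratio of 22.3 with a counting interval of 5.81 to 190. Mmp28 overlaps another protein-coding gene that also had more reads in the Procr-positive library. Reads in the shared stretch cannot be told apart without strand. Mmp19 was lower, at 1.34 RPKM from 42 reads in Procr-positive cells, against 3.77 RPKM from 123 reads in Procr-negative cells, and its interval for the read ratio, 0.243 to 0.507, included 2-fold. With a filter of 5 RPKM no Mmp gene was higher and 3 of 4 were lower. Mmp25, another GPI-anchored enzyme, stayed below 1 RPKM, with 8 reads in the Procr-positive library, against 30 in the Procr-negative library. It overlaps Bicdl2, which had 15 reads in the Procr-positive library, against 346 in the Procr-negative library.

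The ADAM genes divided by member. Of 20 genes 8 were tested, with 2 higher, 2 lower and 4 within 2-fold. Among all genes tested 13.1% were higher and 23.7% lower, so the share of Adam genes called lower was close to that of all genes. The median log2 ratio of the tested Adam genes was 0.32, and it was 0.03 over all 20 genes with no filter. Adam15, known from endothelial cell contacts and for binding integrins (chromosome 3, 89339640 to 89350028), had 149 RPKM from 4119 reads in the Procr-positive library, against 37.8 RPKM from 1087 reads in the Procr-negative library. The ratio was 3.93 (3.68 to 4.21). Adam10, the main protease that starts Notch receptor cleavage (chromosome 9, 70678944 to 70780229), had 28.2 RPKM from 1196 reads in the Procr-positive library, against 73.6 RPKM from 3243 reads in the Procr-negative library. It was 2.61-fold lower (2.45 to 2.80). The order of these genes therefore differed: Adam15 was the most abundant Adam gene in the Procr-positive library, with 56.4% of the family's sum, and Adam10 in the Procr-negative library, with 38.5%.

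Adam17, which releases TNF and several EGF receptor ligands, was nearly level, with 18.9 RPKM from 786 reads in the Procr-positive library, against 15.3 RPKM from 658 reads in the Procr-negative library. Adam9, a widely expressed sheddase, had 55.4 RPKM from 2074 reads in Procr-positive cells, against 44.1 RPKM from 1713 reads in Procr-negative cells. Adam8, first described in myeloid cells, had 2.36 RPKM from 66 reads in Procr-positive cells, against 14.8 RPKM from 429 reads in Procr-negative cells, and was 6.27-fold lower (4.83 to 8.25). The immune markers were higher in 6 of 9 tested cases and none was lower, and their part in the Adam8 difference was not tested. Adam19, a protease of neuregulins, had 3.07 RPKM from 181 reads in the Procr-positive library, against 0.736 RPKM from 45 reads in the Procr-negative library.

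Adam12, at 1.34 RPKM in Procr-positive cells, against 0.640 RPKM in Procr-negative cells, did not reach 2-fold on the scale of RPKM + 1 (log2 ratio 0.51). Its read ratio was 2.10 (1.46 to 3.04). The neural ADAMs that lack a working zinc site, Adam11, Adam22 and Adam23, did not pass the filter. The highest of them was Adam22, with 82 reads in the Procr-positive library, against 10 in the Procr-negative library, just below 1 RPKM. Of 8 Adam genes known from the reproductive tract 1 was tested, Adam1a, with 69 reads in Procr-positive cells, against 52 reads in Procr-negative cells, and the other 7 had at most 6 reads in a library. Adam1a and Adam1b are related genes 15.2 kb apart. Unique mapping may undercount stretches that related genes share, which was not tested.

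The order of levels also separated the libraries. In the Procr-positive library the order was Adamts4, Adamts1, Timp3, Adamts9 and Adam15, and the counting intervals of neighbours in that order did not overlap. In the Procr-negative library it was Adamts4 at 84.5 RPKM (81.5 to 87.6), Timp3 at 81.1 (78.5 to 83.8), Adamts1 at 78.3 (75.8 to 80.9), Adam10 at 73.6 (71.1 to 76.2) and Mmp14 at 66.5 (63.3 to 69.8). There the intervals of neighbours overlapped among the first 4 genes. Levels thus spanned a wider range at the top of the Procr-positive library than of the Procr-negative library.

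**Figure D4:**
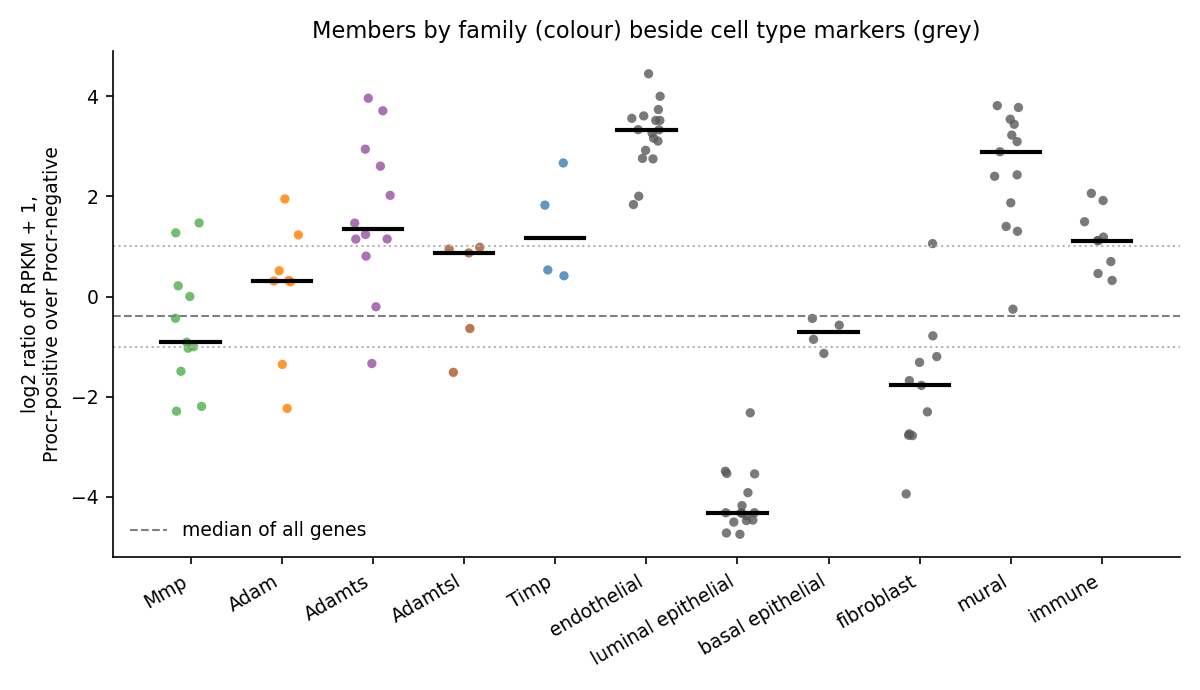
Log2 ratios of RPKM + 1, Procr-positive over Procr-negative, of the tested members by family (coloured points) beside 6 lists of cell type markers (grey points), with bars at medians, a dashed line at the median of all genes (−0.38) and dotted lines at 2-fold. The Adamts points reach into the range of the endothelial markers, and no member reaches that of the luminal epithelial markers.

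Set beside the markers, 7 of the 40 tested members lay within the range of the endothelial list (log2 1.84 to 4.45), which held 5.67% of all genes tested. These were Adamts9, Adamts4, Adamts1, Timp3, Adamts8, Adamts12 and Adam15. Of these, Adamts9 and Adamts4 also lay above the endothelial median of 3.33, as did 0.727% of all genes. No member lay within the range of the luminal epithelial list (−4.74 to −2.32), which held 4.35% of all genes, and the lowest, Mmp3 at −2.29, lay just above it. The mural range (−0.25 to 3.81) held 67.5% of the tested members and 44.2% of all genes tested, and the fibroblast range (−3.94 to 1.06) held 62.5% of the tested members and 86.7% of all genes tested. The immune range held 45.0% of the tested members and 21.0% of all genes tested, and the basal epithelial range 4 of the 40 tested members and 28.5% of all genes tested. These ranges overlap each other. Adamts9 alone lay above the mural range. Centred on the endothelial median, no member was 2-fold higher and 35 of the 40 were 2-fold lower. In that setting 10 of all 12509 genes tested were higher and 12082 lower, so most genes were called lower by the shift itself.

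The genes that activate, anchor or partner these proteases divided in both directions. Of 17 tested, 4 were higher, 6 lower and 7 within 2-fold, with a median log2 ratio of −0.24. For comparison with this list and those that follow, 13.1% of all genes tested were higher and 23.7% lower, with a median of −0.38. The TspanC8 tetraspanins, which bind ADAM10 and carry it to the surface, did not move as a group. Tspan15 had 31.3 RPKM in the Procr-positive library, against 4.93 RPKM in the Procr-negative library, a ratio of 6.36 (5.40 to 7.52). Tspan5 had 32.6 RPKM in Procr-positive cells, against 8.37 RPKM in Procr-negative cells, a ratio of 3.89 (3.38 to 4.48). Tspan14 went the other way, with 6.72 RPKM in the Procr-positive library, against 58.6 RPKM in the Procr-negative library, and was 8.72-fold lower (7.38 to 10.4). Tspan33 was lower and Tspan17 within 2-fold.

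Of the iRhom genes, whose products guide ADAM17 to the surface, Rhbdf1 was lower, at 29.7 RPKM in the Procr-positive library, against 78.5 RPKM in the Procr-negative library, and Rhbdf2 was level at 36.8 RPKM in Procr-positive cells, against 37.5 RPKM in Procr-negative cells. Their partner Frmd8 was lower, at 4.90 RPKM in Procr-positive cells, against 20.3 RPKM in Procr-negative cells. Cd44, a hyaluronan receptor that can hold MMPs at the surface, had 30.1 RPKM in the Procr-positive library, against 138 RPKM in the Procr-negative library. Furin, a convertase that activates many precursors, lay within 2-fold at 57.7 RPKM in Procr-positive cells, against 69.3 RPKM in Procr-negative cells.

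Among 11 tested genes of other inhibitors and of clearance, 3 were higher and 2 lower (median log2 ratio 0.43). Tfpi2, a secreted serine protease inhibitor of the matrix, had 95.7 RPKM in the Procr-positive library, against 5.50 RPKM in the Procr-negative library, a ratio of 17.4 (13.9 to 22.1). Serpine2, which encodes protease nexin-1, had 43.2 RPKM in Procr-positive cells, against 5.75 RPKM in Procr-negative cells. Papln, whose product papilin shares domains with ADAMTS proteins, was lower, at 7.11 RPKM in the Procr-positive library, against 38.1 RPKM in the Procr-negative library. Pcolce2, a procollagen C-proteinase enhancer gene, was also lower, with 8 reads in Procr-positive cells, against 108 reads in Procr-negative cells. Reck, a membrane-anchored MMP inhibitor, was scarce at 2.95 RPKM in Procr-positive cells, against 1.95 RPKM in Procr-negative cells.

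Of 8 tested astacin and serine proteases of matrix or cell surface, 3 were higher and 4 lower (median −1.06). Tll1, a tolloid-like procollagen protease, had 25.8 RPKM in the Procr-positive library, against 1.02 RPKM in the Procr-negative library, a ratio of 25.3 (19.0 to 34.6). Htra1, a secreted serine protease, had 55.0 RPKM in Procr-positive cells, against 14.8 RPKM in Procr-negative cells. The epithelial transmembrane serine protease genes Tmprss2 and St14 were lower: Tmprss2 had 2.90 RPKM in the Procr-positive library, against 75.4 RPKM in the Procr-negative library, and St14 had 6.86 RPKM in Procr-positive cells, against 138 RPKM in Procr-negative cells.

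**Figure D5:**
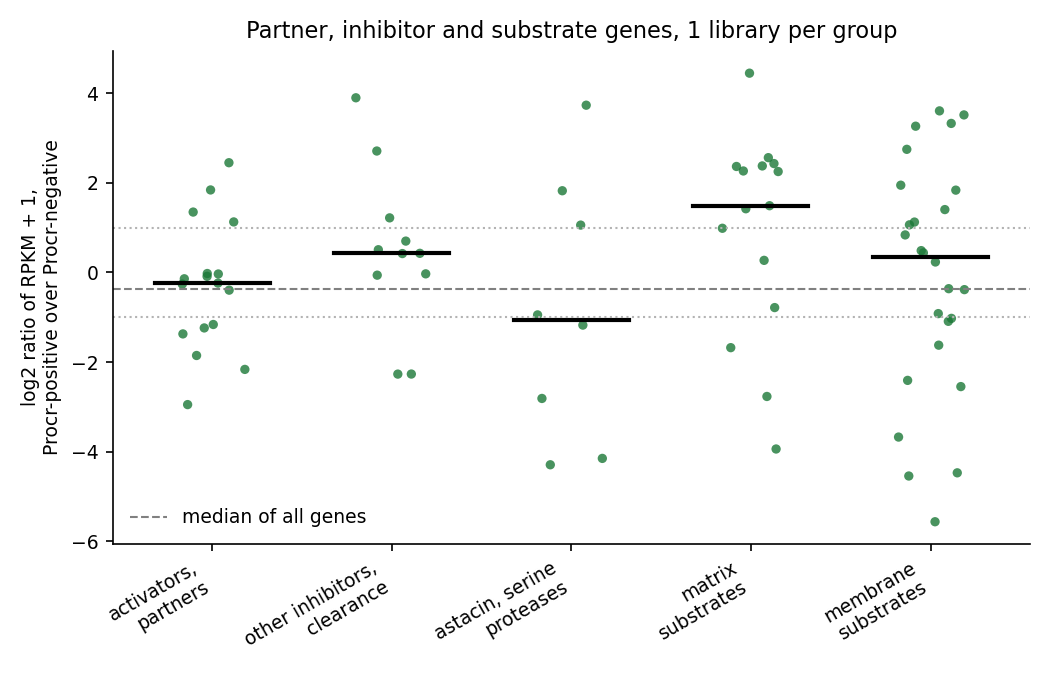
Log2 ratios of RPKM + 1, Procr-positive over Procr-negative, of genes that act with or are cleaved by the proteases, in 5 lists, with bars at medians, a dashed line at the median of all genes (−0.38) and dotted lines at 2-fold. Matrix substrates have the highest median (1.49), and membrane substrates have the widest spread.

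Known matrix substrates were higher in 9 of 15 tested cases and lower in 3 (median 1.49). Vwf, Col4a2 and Col4a1 were higher: Col4a2, a basement membrane collagen gene, had 226 RPKM in the Procr-positive library, against 37.4 RPKM in the Procr-negative library. The proteoglycan gene Vcan, which encodes versican, the substrate of several ADAMTS enzymes, had 6.67 RPKM in Procr-positive cells, against 1.87 RPKM in Procr-negative cells, a ratio of 3.57, whereas the aggrecan gene Acan had 0 reads in Procr-positive cells, against 2 reads in Procr-negative cells, and the brevican gene Bcan had 4 reads in Procr-positive cells, against 3 reads in Procr-negative cells. The interstitial matrix genes Dcn and Col1a1, both in the fibroblast list, were lower, at 17.8 and 13.9 RPKM in the Procr-positive library, against 287 and 101 RPKM in the Procr-negative library.

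Known membrane substrates were higher in 10 of 26 tested cases and lower in 9 (median 0.33). The higher end held endothelial receptor genes. Tek had 52.1 RPKM in the Procr-positive library, against 3.37 RPKM in the Procr-negative library, and Tie1 had 193 RPKM in Procr-positive cells, against 16.0 RPKM in Procr-negative cells. At the lower end were ligands of the EGF receptor family together with Cdh1, the E-cadherin gene, and Sdc4, a syndecan gene, with log2 ratios of −4.47 and −3.67. Areg, which encodes amphiregulin, had 28.9 RPKM in the Procr-positive library, against 1409 RPKM in the Procr-negative library, and Btc had 6 reads in Procr-positive cells, against 758 reads in Procr-negative cells. The ligand genes did not all go one way: Hbegf was higher, with 409 RPKM in the Procr-positive library, against 187 RPKM in the Procr-negative library, and Tgfa lay within 2-fold, with a read ratio of 1.38. Adam17, whose product releases amphiregulin, differed by a read ratio of 1.24 between the same libraries. Notch1, a substrate of ADAM10, had 66.2 RPKM in the Procr-positive library, against 36.6 RPKM in the Procr-negative library, and stayed within 2-fold.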

How the data were processed

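RNA of 2 sorted cell libraries was sequenced as single reads, and reads with 1 place in mm10 were kept, per the labels' protocols. No source used here names the aligner, the counter, the annotation or the use of strand. The deposited counts, per the file headers, are uniquely mapped reads of each gene and summed to the header total in each library. RPKM was deposited by the authors and equalled the reads per kb and per M reads. The percent of gene length covered was deposited too and was read but not used for a result. A gene listed in 1 library only was given 0 reads in the other.

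Log2 ratios used RPKM + 1, Procr-positive over Procr-negative, with a filter of 1 RPKM in at least 1 library and a 2-fold threshold. Single-gene folds are ratios of reads per M with exact (Clopper-Pearson) 95% intervals, and levels have exact Poisson intervals. Against 0 reads a floor of 3 reads was used. All cover counting error only, and PCR copies are not independent molecules. At 1 kb, 3 reads equal 0.325 RPKM in the Procr-positive library, against 0.314 RPKM in the Procr-negative one. The calculations were tested on simulated data. With 1 library per group, no test between groups was made.

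The members, gene lists and sequence motifs were chosen with earlier results of these data known. The rule for named genes took members with at least 5 RPKM and 50 reads in a library (20 genes), others to complete small counts or as the highest of a family, and the 2 highest and 2 lowest genes of each partner or substrate list with 50 reads in a library. Further low members and partners were named after their values were seen. Coordinates and promoters come from RefSeq for GRCm38.p6, the assembly behind mm10, in which all 67 members matched. Protein sequences were not used here, so a planned search for the zinc site was not run. Python 3.11.15, pandas 2.3.3, numpy 2.4.6, scipy 1.17.1 and matplotlib 3.10.9 were used. Alternatives were 2 other pseudocounts, no filter and a 5 RPKM filter, centring on the median of all genes or of the endothelial markers, upper-quartile scaling, calls by counting interval and, for sums, TPM. Values of 1 gene that overlaps a member are not reported here.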

Additional observations from a re-analysis of the deposited data

How the results depend on the processing

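No paired analysis was possible because each group has 1 library, and for the same reason no library could be left out. Of the counts of calls and ratios of sums recomputed, 47 moved and 155 stayed within 1.5 times (counts) or inside the counting interval (ratios). The balance of higher and lower calls turned for all genes under centring on their median and under upper-quartile scaling. For the members it turned under centring on the endothelial markers, where their median log2 ratio was −2.81. Some families and lists turned too, such as the Adamtsl genes in several settings and the activators and partners under centring on the median of all genes. Causes were not tested beyond the construction of each setting. With a 5 RPKM filter, which leaves 20 members, 9 were higher, with 0 higher and 3 lower Mmp, 1 higher Adam and 0 lower Adamts genes. Centring on the median of all genes, which adds 0.38 to every log2 ratio, left 5 members lower, with 3 lower Mmp, 1 lower Adam and 0 lower Adamts genes, 3 higher Adamtsl genes, 3 lower activators and partners and 1644 lower genes overall. Upper-quartile scaling gave 3 lower Mmp and 3 higher Adamtsl genes. With a pseudocount of 0.1 RPKM 3 Adamtsl genes were higher and 2 lower, with 0.5 RPKM 3 were higher, and by counting interval 2 were higher. Centring on the endothelial marker median left 0 members higher and 35 lower: 0 and 11 Mmp, 0 and 8 Adam, 0 and 8 Adamts and 0 and 3 Timp genes, and 5 lower Adamtsl genes. In the same setting 0 activators and partners were higher and 16 lower, 0 other inhibitors higher and 9 lower, 0 astacin and serine proteases higher and 7 lower, 1 matrix substrate higher and 10 lower, 0 membrane substrates higher and 21 lower, and 10 of all genes higher and 12082 lower. Summed over members of 5 RPKM, the ratio was 0.413 for Mmp, 10.85 for Adamts and 0.253 for Adamtsl genes. As TPM it was 1.42 for Adam, 10.7 for Adamts and 3.61 for Timp genes. Of 40 single-gene read ratios recomputed under median centring or upper-quartile scaling, 30 left their counting interval and 10 did not, and none changed sign. Mmp2, level in the report, had a log2 read ratio of 0.38 under median centring and 0.33 under upper-quartile scaling. Depth limits the 27 members under 1 RPKM, most of which had too few reads to compare.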
